A study of Mus musculus with 2 samples.

Results

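The receptors of IL-2, IL-4, IL-7, IL-9, IL-15, and IL-21 share the common gamma chain, γc, which is encoded by *Il2rg*. The 8 genes examined here were *Il2rg* and the 7 private chains *Il2ra*, *Il2rb*, *Il7r*, *Il4ra*, *Il9r*, *Il15ra*, and *Il21r*. They were taken by symbol from a table of 48321 genes, and all 8 were found in both libraries. The libraries came from sorted CD4- mature thymocytes of MHC-II0:CD8ab Tg mice on the C57Bl/6 background, in 2 replicates. These mice lack MHC class II through loss of I-Aβ (I-Ab-/-), carry the Cd8Δab/Δab alleles, in which *Cd8a* was replaced by human CD2 and *Cd8b1* was disrupted, and express CD8α and CD8β cDNAs from the Rosa26 locus. The cDNAs are switched on by Cd4-Cre, so the transgenic chains appear only from the stage at which *Cd4* is expressed. The study found transgenic CD8α below the endogenous level and names weak activity of the Rosa26 promoter as its presumed reason. Both libraries are of this genotype, untreated, and their age, sex, and number of mice per library are not given in the sources used here. There is thus no comparison between conditions, and each value below is a level in this population. The labels do not say how the libraries relate to single mice, and p-values over them measure only the difference between these samples.

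In this receptor family a private chain binds the cytokine and γc completes the signaling complex. γc brings the kinase JAK3, and the private signaling chain brings JAK1, and the kinases then activate STAT factors. IL-7 supports survival and maturation of CD8 SP thymocytes, IL-15 supports memory CD8 T cells and NK cells, and IL-4 supports innate memory-like CD8 thymocytes. CD122, the product of *Il2rb*, is used with CD44 to recognize these innate memory-like cells. *Il2ra* and *Il15ra* encode the α chains that raise the affinity for IL-2 and IL-15, and both cytokines signal through CD122 and γc.

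All members are protein-coding genes of GRCm38 (mm10) in GENCODE M21. *Il2rg* (8 exons in its principal transcript) spans 101264378 to 101268255 of chromosome X, minus strand. *Il2rb* (10 exons, 78479256 to 78495271) and *Il7r* (8 exons, 9505788 to 9530176) are both on the minus strand of chromosome 15. *Il9r* (9 exons) spans 32187541 to 32200279 of chromosome 11, also on the minus strand. The remaining members form 2 pairs of direct neighbors. *Il2ra* (11642807 to 11693193) and *Il15ra* (11705290 to 11734317) follow each other on the plus strand of chromosome 2, 12096 bases apart. *Il4ra* (125552120 to 125579474) and *Il21r* (125603429 to 125633570) follow each other on the plus strand of chromosome 7, 23954 bases apart. No protein-coding gene lies between the members of either pair.

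The 150 bases just upstream of the RefSeq start of 3 members with high levels and of the 2 members with the lowest levels are shown, so that the sequences at both ends of the expression range can be read side by side. They were taken from the RefSeq promoter table of GRCm38.p6, in which 7 of the 8 members were matched, and none of them overlaps an exon of GENCODE M21. The RefSeq start of *Il7r* lies inside the span that GENCODE gives the gene, so its stretch does too. *Il2rb* was not matched. The sequences are written 5′ to 3′ on the strand of the gene, and capitals mark matches to one of 5 short motifs searched on both strands.
*Il2rg* (chrX:101268256-101268405, minus strand): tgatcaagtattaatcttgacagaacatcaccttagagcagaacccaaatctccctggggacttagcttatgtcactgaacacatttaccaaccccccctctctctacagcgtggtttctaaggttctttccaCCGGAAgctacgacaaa
*Il7r* (chr15:9529877-9530026, minus strand): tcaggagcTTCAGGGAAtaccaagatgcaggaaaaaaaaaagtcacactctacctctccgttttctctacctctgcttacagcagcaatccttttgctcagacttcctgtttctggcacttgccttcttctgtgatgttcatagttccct
*Il21r* (chr7:125603279-125603428, plus strand): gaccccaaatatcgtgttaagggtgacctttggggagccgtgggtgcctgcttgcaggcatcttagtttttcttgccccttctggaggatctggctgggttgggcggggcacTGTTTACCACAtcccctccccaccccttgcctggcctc
*Il2ra* (chr2:11642642-11642791, plus strand): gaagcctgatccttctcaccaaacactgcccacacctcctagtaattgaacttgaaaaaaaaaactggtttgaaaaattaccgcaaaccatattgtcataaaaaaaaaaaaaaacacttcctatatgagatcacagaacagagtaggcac
*Il9r* (chr11:32200280-32200429, minus strand): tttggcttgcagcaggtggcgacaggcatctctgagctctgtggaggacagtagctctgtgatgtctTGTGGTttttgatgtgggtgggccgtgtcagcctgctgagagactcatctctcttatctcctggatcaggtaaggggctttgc

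The motifs were CCGGAA for ETS factors, TGTGGT for RUNX factors, TTCNNNGAA for STAT5, TGTTTAC for FOXO factors, and GGTGTGA for T-box factors. Among the 250 bases upstream of 32851 starts in the table, the share with a match was 12.0% for ETS, 14.0% for RUNX, 7.02% for STAT5, 3.17% for FOXO, and 3.33% for T-box. *Il2rg* had an ETS match from base 17 to base 12 upstream of its start. It also had a RUNX match outside the stretch shown, from base 227 to base 222. *Il7r* had a STAT5 match from base 142 to base 134. In *Il21r* a FOXO match from base 38 to base 32 overlapped a RUNX match from base 33 to base 28. *Il9r*, a member with one of the lowest levels, had a RUNX match from base 83 to base 78. *Il15ra*, another member at a low level, had an ETS match from base 104 to base 99 upstream of one of its RefSeq starts. *Il2ra* and *Il4ra* had no match to these letters in this window. Matches thus occurred at both high and low levels, and they are descriptions of sequence, not binding sites.

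In replicate 1, 16732644 reads were counted on genes, and in replicate 2, 16245849. These were 40.6% and 41.2% of the uniquely aligned reads. In each library 55.9% of the uniquely aligned reads were counted as having no feature and are in none of the levels below. The strand setting of the counting is not given. Whether these reads lay outside genes or on the other strand of a gene is thus not known. Levels were expressed as CPM, the count scaled to a library total of 1000000, and 3 counts, the smallest level treated as detectable, corresponded to 0.179 and 0.185 CPM. All 10 markers of mature T cells were at 112 CPM or more on average. Among them were *Cd8a*, at 165 CPM, and *Cd8b1*, at 780 CPM, which are altered in these mice and also supplied as cDNAs. Reads of the altered alleles and of the transgenic cDNAs cannot be told apart in these counts, so these genes do not mark cell identity here. The 6 markers of double-positive thymocytes summed to 18.0 and 17.7 CPM. Most of this sum was *Dntt*, at 13.2 ± 0.282 CPM (SD, n = 2), whereas *Cd24a* was at 2.39 ± 0.936 CPM, *Cd4* at 1.19 ± 0.668, and *Rag1* at 0.824 ± 0.489. The summed markers of myeloid and dendritic cells were at 15.2 and 16.4 CPM, most of it *Csf1r*, with *Lyz2* at 0 and 2 counts. Markers of thymic epithelium summed to 3.17 and 3.51 CPM, and of erythroid cells to 0, and *Trdc*, a marker of γδ T cells, was at 6.23 ± 1.29 CPM (SD, n = 2). In such bulk samples fewer cells of a type and less RNA per cell cannot be told apart. The titles of the libraries name cells without CD4 and CD8, their cell type field names CD8+ cells, and the paper's methods describe CD4- cells, whose name is used here. Sex-linked genes set the libraries apart, with 34 counts of *Xist* in replicate 1 and 25266 in replicate 2, and 2450 and 0 counts of *Ddx3y*. The libraries were thus not repeats of the same RNA. These counts are the pattern of mainly male cells in replicate 1 and of female cells in replicate 2. Each difference between the libraries below is therefore also one between these sexes, and the part of sex in it was not tested.

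The family was divided into 5 chains at high levels and 3 chains at low levels. *Il2rb*, *Il7r*, *Il4ra*, *Il2rg*, and *Il21r* ranged from 230.6 to 593 CPM over both libraries. *Il15ra*, *Il2ra*, and *Il9r* ranged from 2.57 to 12.9 CPM, which was above the detectable level in each library. The groups were drawn from these same levels, so the gap between their ranges describes the division and does not test it. For comparison between genes, CPM was further divided by the length of annotated exon in kb, with overlapping exons of a gene merged. The median over the 8 members was then 60.3 CPM per kb, against 7.30 for the 10376 protein-coding genes with at least 1 CPM in both libraries.

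**Figure D1:**
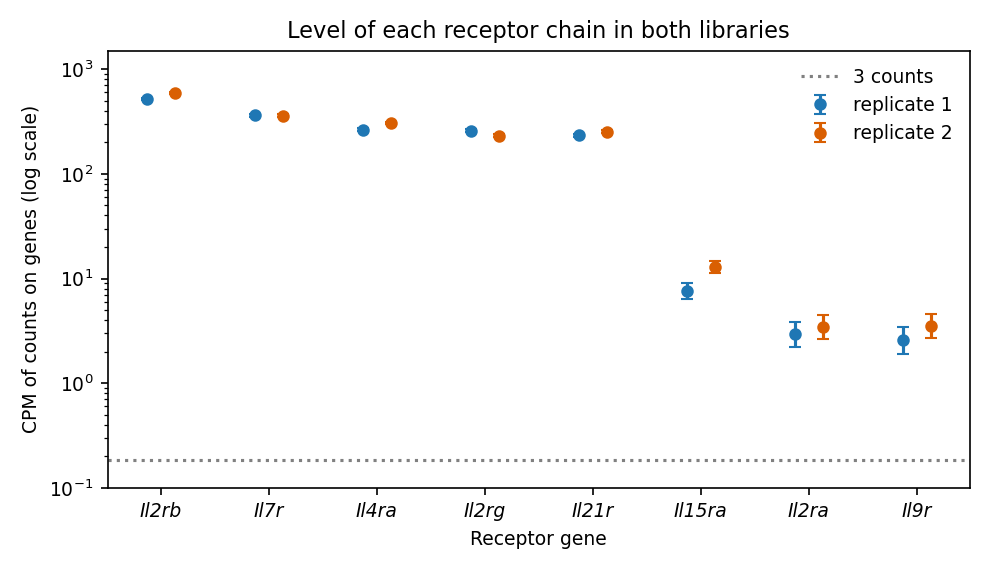
CPM of the 8 receptor genes on a log axis, with a point for each library, Wilson 95% intervals as bars, and a dotted line at 3 counts. The 5 genes on the left lie at 230.6 CPM or more, and *Il15ra*, *Il2ra*, and *Il9r* at 12.9 CPM or less.

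*Il2rg*, the shared chain, had 4312 and 3746 counts in replicates 1 and 2, or 258 and 230.6 CPM. The Wilson 95% intervals were 250.1 to 266 CPM and 223 to 238 CPM, so the libraries differed by more than counting error. Its level per length was 102 ± 8.03 CPM per kb (SD, n = 2), and 98.7% of the 21192 protein-coding genes were below it. This value is uncertain, because 728 bases of its exons, 30.5% of their length, also belong to the protein-coding gene *Gm20489* on the same strand. The counts of *Gm20489* itself were 0 and 2. Reads that fit more than 1 gene were set apart as ambiguous in the deposited tables, where they made up 3.52% and 2.92% of the uniquely aligned reads. The number of such reads at *Il2rg* is not known. When only the 1659 bases of exon that no other gene overlaps were used for the length, the level of *Il2rg* was 147 CPM per kb.

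*Il2rb* encodes CD122, which is shared by the receptors of IL-2 and IL-15. It was the member with the most reads, with 8757 and 9633 counts in replicates 1 and 2, or 523 and 593 CPM. Replicate 2 was the higher library, and the Wilson intervals of 513 to 534 CPM and 581 to 605 CPM did not overlap. The level per length was 130.2 ± 11.5 CPM per kb (SD, n = 2), rank 219 of 21192 protein-coding genes. Its transcripts were free of sequence shared with other genes over 50 bases, the length of a read. Per kb of exon, *Il2rb* was 1.13 times *Il2rg* in replicate 1 and 1.43 times in replicate 2. This order turned when exon overlapped by other genes was left out, where the ratio of the means was 0.885, and with the longest transcript, where it was 0.910.

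The α chains that complete the high-affinity receptors with CD122 were far lower. *Il2ra*, which encodes CD25, had 49 and 56 counts in replicates 1 and 2, or 2.93 and 3.45 CPM. The Wilson intervals of 2.22 to 3.87 CPM and 2.65 to 4.48 CPM overlapped. Per kb of exon, *Il2rb* was 238 times *Il2ra* in replicate 1 and 229 times in replicate 2. CD25 is also a surface marker of regulatory T cells, whose transcription factor *Foxp3* was found at 12.2 ± 0.212 CPM (SD, n = 2). Per kb, *Il2ra* was 0.194 and 0.223 times *Foxp3* in the 2 libraries. Whether the reads of *Il2ra* came from regulatory T cells was not tested.

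*Il15ra*, the private α chain of the IL-15 receptor, had 126 and 210 counts in replicates 1 and 2, or 7.53 and 12.9 CPM. The intervals of 6.33 to 8.96 CPM and 11.3 to 14.8 CPM did not overlap, and replicate 2 was the higher library. Per kb of exon, *Il2rb* was 72.1 times *Il15ra* in replicate 1 and 47.6 times in replicate 2. *Il15ra* was 3.30 times its neighbor *Il2ra* in replicate 1 and 4.82 times in replicate 2. The gene has 18 annotated transcripts, and its level per length rose from 2.30 to 4.42 CPM per kb when the longest transcript replaced the union of exons. The shared chain of this receptor pair was thus at a high RNA level and both α chains were near the lower end of the family.

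*Il7r* encodes CD127, the IL-7-binding chain. It had 6046 and 5861 counts in replicates 1 and 2, or 361.3 and 360.8 CPM. With total counts as the scale it was the member with the closest values in the libraries. With edgeR's TMM library sizes the log2 ratio of replicate 2 to replicate 1 was -0.081 for *Il7r* and 0.036 for *Il21r*. With DESeq2 size factors these were -0.064 and 0.053, so the closest member depended on the scale. Its level per length was 77.4 ± 0.0850 CPM per kb (SD, n = 2), or 0.718 times *Il2rg* in replicate 1 and 0.801 times in replicate 2. With coding length alone, *Il7r* was 1.19 times *Il2rg*, so the order of these genes also depended on the length used. CD127 also pairs with the product of *Crlf2* to form the receptor of TSLP. *Crlf2* had 520 and 546 counts, or 32.3 ± 1.79 CPM (SD, n = 2), and per kb *Il7r* was 3.73 and 3.44 times *Crlf2*.

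*Il4ra* encodes the IL-4-binding chain, which signals with γc in T cells and with the product of *Il13ra1* in many other cells. It had 4429 and 4973 counts in replicates 1 and 2, or 265 and 306 CPM. Replicate 2 was higher, and the intervals of 257 to 273 CPM and 298 to 315 CPM did not overlap. The counts of *Il13ra1* were 0 and 2, and those of *Il13ra2* were 0 in both libraries, so neither was above the detectable level. The level of *Il4ra* per length was 47.6 ± 4.88 CPM per kb (SD, n = 2), 0.408 times *Il2rg* in replicate 1 and 0.528 times in replicate 2. An antisense gene, *Gm44876*, covers 571 bases, or 9.51%, of the exons of *Il4ra* on the opposite strand and had 130 and 164 counts. The strand setting of the counting is not given. Whether reads there were counted on 1 of these genes or set apart as ambiguous is thus not known.

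*Il21r* encodes the IL-21-binding chain. It had 3906 and 4105 counts in replicates 1 and 2, or 233 and 253 CPM. Its level per length was 73.1 ± 4.09 CPM per kb (SD, n = 2), 0.650 times *Il2rg* in replicate 1 and 0.787 times in replicate 2. Per kb, its neighbor *Il4ra* was 0.628 times *Il21r* in replicate 1 and 0.671 times in replicate 2. *Il21r* was also close to *Il7r*, which was 1.10 times *Il21r* in replicate 1 and 1.02 times in replicate 2.

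*Il9r* encodes the IL-9-binding chain. It had 43 and 57 counts in replicates 1 and 2, or 2.57 and 3.51 CPM, with overlapping intervals of 1.91 to 3.46 CPM and 2.71 to 4.55 CPM. Its level per length was 0.614 ± 0.134 CPM per kb (SD, n = 2), close to that of *Il2ra* at 0.558 ± 0.0642. The ranges of these lowest members overlapped, so their order is not resolved.

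Ordered by level per kb, the members were *Il2rb*, *Il2rg*, *Il7r*, *Il21r*, *Il4ra*, *Il15ra*, *Il9r*, and *Il2ra*. Over the libraries, only *Il9r* and *Il2ra* had overlapping ranges among neighbors in this order, but with n = 2 a gap between ranges is weak evidence of an order. The step from *Il4ra* to *Il15ra* was the largest, 26.0-fold in replicate 1 and 17.5-fold in replicate 2, and it held under all 4 definitions of length. Of the summed level per kb of the 8 members, *Il2rb* made up 30.0% ± 1.72 (SD, n = 2), *Il2rg* 23.6% ± 2.58, *Il7r* 17.8% ± 0.570, *Il21r* 16.8% ± 0.424, and *Il4ra* 10.9% ± 0.787. *Il15ra*, *Il9r*, and *Il2ra* each contributed under 1%. The 7 private chains together were 2.93 times *Il2rg* in replicate 1 and 3.59 times in replicate 2. These shares and ratios use merged exons, of which 30.5% for *Il2rg* also belong to *Gm20489*. With exon that no other gene overlaps, *Il2rg* was above *Il2rb*, at 147 against 130.2 CPM per kb, so they depend on the length used.

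**Figure D2:**
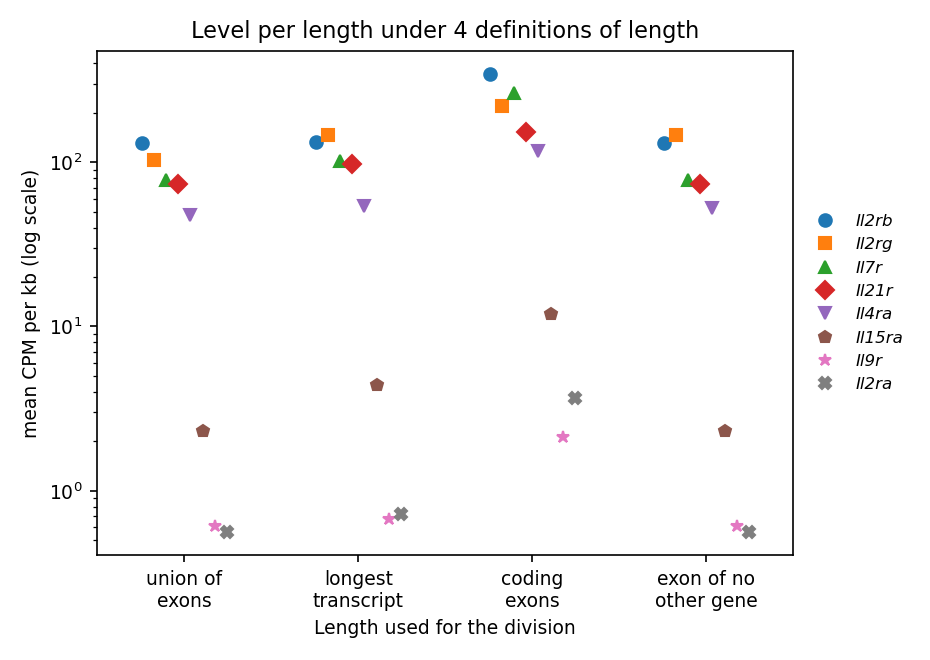
Mean CPM per kb of the 8 members on a log axis, with a symbol for each gene and a column for each of 4 lengths: merged exons, the longest transcript, coding exons, and exon that no other gene overlaps. *Il2rg* is at 102, 146, 220.5, and 147 CPM per kb in these columns and changes place with *Il2rb* and *Il7r*, whereas *Il15ra*, *Il9r*, and *Il2ra* stay below the other 5 genes in each column.

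The members were set beside 19 chains of other cytokine receptors, which bind interferons, TGF-β, and cytokines of the IL-6, IL-10, IL-12, IL-17, and IL-1 families. The median of these 19 chains was 15.7 CPM per kb, against 60.3 for the 8 members. *Il2rb* and *Il2rg* held places 1 and 2 of the 27 chains by the mean of the libraries, *Il7r*, *Il21r*, and *Il4ra* places 5, 6, and 7, and *Il15ra*, *Il9r*, and *Il2ra* places 21, 23, and 24. These places are for merged exons, and *Il2rg* was above *Il2rb* with the longest transcript and with exon that no other gene overlaps. *Il27ra*, which encodes a chain of the IL-27 receptor, and *Ifngr1*, which encodes the ligand-binding chain of the IFN-γ receptor, were at 101.4 ± 3.07 and 79.5 ± 4.63 CPM per kb (SD, n = 2). Their means stood between those of *Il2rg* and *Il7r*, but the order was not the same in both libraries. *Il27ra* was above *Il2rg* in replicate 2, at 103.5 against 96.6 CPM per kb, and *Ifngr1* was below *Il7r* in replicate 1, at 76.3 against 77.5. The order within places 2 and 3, and within places 4 and 5, is thus not resolved. The same holds for *Il15ra* and *Il12rb2*, a chain of the IL-12 receptor, at 1.69 and 2.00 CPM per kb in replicate 1 but 2.91 and 2.51 in replicate 2. Places 7 and 8 are not resolved either. *Il4ra* and *Tgfbr2* were at 44.1 and 48.7 CPM per kb in replicate 1 but 51.0 and 44.0 in replicate 2.

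**Figure D3:**
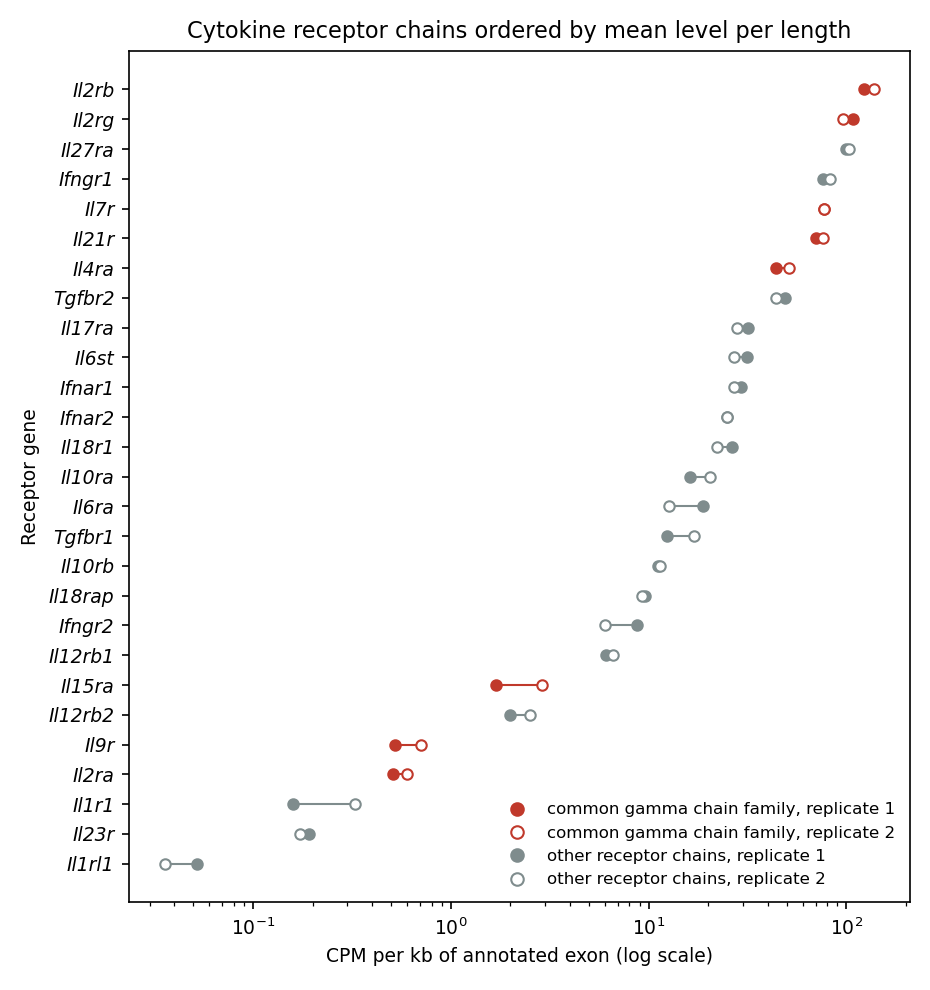
Level of 27 cytokine receptor chains in CPM per kb of merged exon on a log axis, ordered by the mean, with filled points for replicate 1 and open points for replicate 2. The common gamma chain family (red) holds places 1 and 2 by the mean and 3 of the 7 lowest places, which belong to *Il15ra*, *Il9r*, and *Il2ra*.

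By distance in log2(CPM per kb + 1) over the 2 libraries, among the 66 genes of the family and pathway lists, the nearest to *Il2rg* was *Il27ra*, at 0.156. The nearest to *Il2rb* was *Jak1*, at 0.245, to *Il7r* *Ifngr1*, at 0.0994, and to *Il4ra* *Jak3*, at 0.0747. *Il21r* was nearest to *Il7r*, at 0.142, and *Il15ra* to *Il12rb2*, at 0.218. *Il2ra* and *Il9r* were nearest to each other, at 0.0923. Such distances describe levels alone, since 2 libraries of 1 group hold no pattern across conditions.

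The cytokines that these receptors bind were at low RNA levels. None of the 8 genes *Il2*, *Il4*, *Il7*, *Il9*, *Il13*, *Il15*, *Il21*, and *Tslp* reached 1 CPM in either library. *Il7*, *Il9*, and *Tslp* had 0 counts in both libraries, which allows a level of up to 0.179 CPM in replicate 1 and 0.185 CPM in replicate 2. *Il21* was the highest of the list, with 16 and 8 counts, or 0.724 ± 0.328 CPM (SD, n = 2). *Il4* had 11 and 7 counts in replicates 1 and 2, or 0.544 ± 0.160 CPM (SD, n = 2). *Il15* had 4 and 7 counts and *Il2* had 3 and 1.

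The signaling genes downstream were found in both libraries. All 9 kinases and STAT factors examined were at 71.3 CPM or more on average, with a median of 29.0 CPM per kb. *Jak1*, whose product binds the private chains, was at 147 ± 9.96 CPM per kb (SD, n = 2), and *Jak3*, whose product binds γc, was at 49.0 ± 3.63. *Jak1* was 3.01 times *Jak3* per kb in replicate 1 and 2.98 times in replicate 2. *Stat6*, which acts downstream of IL-4, was at 52.2 ± 1.68 CPM per kb. *Stat5b*, which acts downstream of IL-2, IL-7, and IL-15, was at 29.0 ± 1.48, and *Stat5a*, with the same role, at 9.94 in replicate 1 and 10.1 in replicate 2. *Stat3*, which acts downstream of IL-21, was at 26.3 ± 1.19. Of the feedback inhibitors of these receptors, *Socs1* was at 27.5 ± 0.589 CPM per kb, *Socs3* at 14.6 ± 0.111, *Cish* at 8.59 ± 0.315, and *Socs2* at 0.328 ± 0.0743.

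The libraries were also compared gene by gene. This says how far 2 samples of the same genotype, with male and female patterns of sex-linked genes, differed and nothing about conditions. A two-sided exact binomial test of the counts was used, with p adjusted by Benjamini-Hochberg over the 15949 genes with at least 10 counts. With a difference of 2-fold or more and an adjusted p under 0.05, 1.52% of these genes were called, 0.94% as higher in replicate 2 and 0.577% as lower, and 0 of the 8 members were. Without the fold limit 16.3% of genes were called, 13.5% as higher in replicate 2 and 2.82% as lower. By this rule 5 of the 8 members were called, *Il2rb*, *Il4ra*, *Il15ra*, and *Il21r* as higher in replicate 2 and *Il2rg* as lower. More reads let smaller differences pass, and among genes with at least 1000 counts 31.2% were called. The exact test of edgeR, run with an assumed biological coefficient of variation of 0.1 to allow for variation between samples, called 0 of the 8 members at any fold, and 0.464% of all genes tested. The median log2 ratio of replicate 2 to replicate 1 over all genes tested was 0.08, and over the 8 members it was 0.19.

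*Il15ra* had the widest difference, with a log2 ratio of 0.78 (95% interval of counting error 0.45 to 1.11, adjusted p = 3.33e-05 in the exact binomial test, adjusted p = 0.304 in edgeR's exact test). Ratios at least as large, in either direction, were found for 9.99% of all genes tested. *Eomes*, which encodes a transcription factor of innate memory-like CD8 T cells, moved the same way, with 3275 and 5760 counts and a log2 ratio of 0.86. The 4 markers of NK and innate-like T cells, *Ncr1*, *Klrb1c*, *Zbtb16*, and *Klrk1*, summed to 104 CPM in replicate 1 and 133 CPM in replicate 2. At an adjusted p under 0.05 in the exact binomial test, 3 of the 4, all but *Zbtb16*, were higher in replicate 2. The share over all genes tested was 13.5% by this rule. *Zbtb16* had a log2 ratio of 0.25 (adjusted p = 0.134 in the same exact test), and in edgeR's exact test *Ncr1* alone of the 4 passed (adjusted p = 0.00881). None of these markers was at 0 in either library. Their part in the difference of *Il15ra* was not tested.

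*Il4ra* and *Il2rb* were higher in replicate 2 by log2 ratios of 0.21 (0.15 to 0.27, adjusted p = 1.19e-10 in the exact binomial test) and 0.18 (0.14 to 0.22, adjusted p = 2.54e-15 in the same test). With edgeR's TMM library sizes these ratios were smaller, 0.13 for *Il4ra* and 0.10 for *Il2rb*. *Il21r* was higher by 0.11 (0.05 to 0.18, adjusted p = 0.00459 in the exact binomial test), a call that was lost when the libraries were scaled by other sizes. *Il2rg* was the lower of the pair in replicate 2, with a log2 ratio of -0.16 (-0.22 to -0.10, adjusted p = 1.67e-05 in the exact binomial test). For 5719 genes that reached 1000 counts, the middle 95% of ratios ran from -0.20 to 0.34, and *Il4ra*, *Il2rb*, *Il21r*, *Il7r*, and *Il2rg* were inside this range. *Il7r* had a log2 ratio of -0.0022, with an interval of -0.05 to 0.05. *Il2ra*, at 0.24 (-0.34 to 0.82), and *Il9r*, at 0.45 (-0.15 to 1.06), had too few counts for a difference of this size to be detectable.

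**Figure D4:**
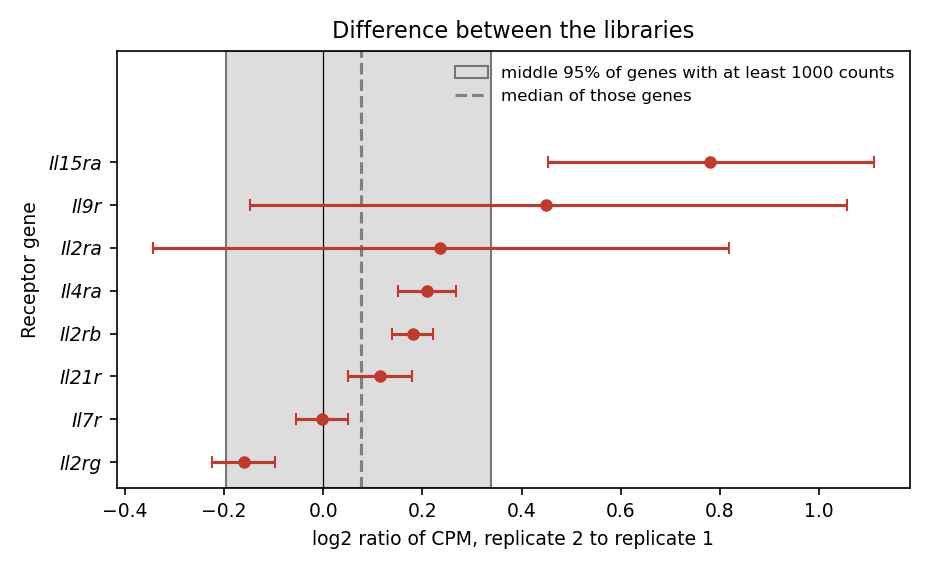
Log2 ratio of CPM in replicate 2 to replicate 1 for the 8 members, with exact 95% intervals of counting error as bars. The shaded band spans the middle 95% of genes with at least 1000 counts, from -0.20 to 0.34, and of the 8 points only those of *Il15ra* and *Il9r*, which have fewer counts than that, lie outside it.

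Since *Il2rg* is on chromosome X and the libraries differed in *Xist*, it was set beside other X-linked genes. The median log2 ratio of replicate 2 to replicate 1 was 0.07 for 149 X-linked genes with at least 1000 counts, without *Xist* and *Tsix*, and 0.08 for 5410 autosomal genes. *Il2rg*, at -0.16, lay below both medians. With the other scalings of the libraries its ratio was from -0.24 to -0.22.

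Transcription factors known to act on *Il7r* or *Il2rb* were present as well. All 9 genes of this list had at least 1 CPM in both libraries, and none differed 2-fold. At any fold, 4 of them had an adjusted p under 0.05 in the exact binomial test, all higher in replicate 2. The share was 16.3% over all genes tested and 31.2% among genes with at least 1000 counts. Most calls over all genes were likewise higher in replicate 2 with total counts as the scale. Of these 4 genes only *Eomes* passed edgeR's exact test (adjusted p = 0.0119). *Foxo1* and *Foxp1*, which activate and restrain *Il7r*, were at 30.3 ± 0.659 and 12.9 ± 0.383 CPM per kb (SD, n = 2). *Tbx21* and *Eomes* encode T-box factors that act on *Il2rb*. *Tbx21* was at 11.6 ± 0.777 CPM per kb, and *Eomes* at 47.1 in replicate 1 and 85.3 in replicate 2. *Eomes* thus had the widest spread in this list, whereas *Il2rb* had 122 CPM per kb in replicate 1 and 138 in replicate 2. Of 6 survival and target genes, *Mcl1*, *Ccnd2*, and *Bcl2* were at 150 ± 3.23, 113 ± 3.12, and 50.3 ± 1.64 CPM per kb, and none of the 6 differed 2-fold between the libraries.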

How the data were processed

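Poly(A) libraries of 2 samples of the same genotype were sequenced as single-end reads of 50 bases. Per the labels and the paper's methods, the authors mapped them to mm10 with TopHat2 2.1.1, counted them with HTSeq 0.6.1, and deposited each gene's raw count, not normalized. The annotation, counting mode, and strand setting are not given in the sources used here.

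CPM was computed from the deposited counts as a share of the total on genes, leaving out HTSeq's summary lines (no feature, ambiguous, not unique). Lengths came from GENCODE M21 (GRCm38, the build mm10), in which 46394 of 48321 symbols were found. Reads are not independent molecules, so the Wilson and exact 95% intervals, like the limit of 3 counts, hold counting error alone. For genes with at least 10 counts the libraries were compared with the exact binomial test (two-sided, scipy 1.17.1), and p was adjusted by Benjamini-Hochberg (statsmodels 0.14.6). Alternatives used edgeR 4.0.16 and DESeq2 1.42.0 on the counts. The test was run on simulated counts of 48321 genes for this comparison, where all 200 genes given a 4-fold change were found along with 3 that had none. The 8 members, the pathway lists, and the rule for named genes (members, fixed lists, nearest genes in level), and the motifs were chosen with earlier results of these data known. *Gm20489*, *Gm44876*, and *Xist* were named after their values were seen. The shares of all genes called by edgeR's exact test and among genes with at least 1000 counts were added after seeing the data. Python 3.11.15 and R 4.3.3 were used. Some marker genes are not reported here.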

Additional observations from a re-analysis of the deposited data

How the results depend on the processing

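No paired analysis was possible because the libraries form a single group. Taking 393 genes of mitochondrial and ribosomal RNA out of the totals made these smaller and raised 6 members past 1 SD, *Il2rb* to 651 CPM, *Il7r* to 422, *Il4ra* to 333, *Il2rg* to 285.4, *Il21r* to 284, and *Il2ra* to 3.72. TMM and DESeq2 library sizes moved none of the 8 by more than 1 SD. Without replicate 1 or 2, each level is that of the other library, as stated above. The length used changed levels per kb more. With the longest transcript they were 146 for *Il2rg*, 102 for *Il7r*, 97.3 for *Il21r*, 54.3 for *Il4ra*, 4.42 for *Il15ra*, and 0.722 for *Il2ra*. With coding length they were 345 for *Il2rb*, 262 for *Il7r*, 220.5 for *Il2rg*, 153 for *Il21r*, 117 for *Il4ra*, 11.9 for *Il15ra*, 3.66 for *Il2ra*, and 2.12 for *Il9r*. With exon overlapped by no other gene, an alternative chosen after seeing the data, they were 147 for *Il2rg* and 52.5 for *Il4ra*. The number of genes that differed between the libraries was 242, and it was 55 with at least 100 counts and 60 with the exact test of edgeR (assumed coefficient 0.1), all of them among the 242. It was 198 to 218 under TMM, DESeq2, the reduced totals, and at least 1 count. Of these calls, 150 were higher in replicate 2 with total counts, 98 with TMM, and 104 with DESeq2. No member was called under any of these settings (0). The number of members with an adjusted p under 0.05 at any fold was 5, then 4 with DESeq2 and with the reduced totals, and 0 with edgeR's exact test. With TMM it was again 5, but *Il7r* was gained and *Il21r* lost.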
